A study of Mus musculus with 2 samples.

Results

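Steroid-metabolizing and sulfating enzymes were followed in the mouse uterus at gestation day 2.5 (G2.5), before implantation. The 9 genes were selected by gene symbol in the deposited table of tag counts: the sulfotransferases Sult1d1 and Sult1a1, the aldo-keto reductases Akr1c14 and Akr1c18, the hydroxysteroid dehydrogenases Hsd11b1, Hsd11b2 and Hsd17b11, the steroid reductase Srd5a1 and the side-chain cleavage enzyme Cyp11a1. Values of 8 of them were analysed, out of 14678 genes in the table, and Cyp11a1, which makes the first steroid from cholesterol, was not analysed here.

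Both groups were adult double transgenic females, VEGFtetO/tetO/beta-AKtg/wt, were littermates and were mated with VEGFtetO/tetO males. Tet operator sequences had been placed in the VEGF promoter, and a tetR-Krab repressor was expressed throughout the body from a β-actin promoter. Dox+ females ate chow with doxycycline, which releases the repressor, so that VEGF stayed at its normal level. All were raised on this chow, and in Dox- females it was withdrawn weeks before mating, so that VEGF was repressed. RNA of 3 uteri was pooled for each condition and 1 library was sequenced from each pool, so a difference has no replicate library. The paper also measured some genes by quantitative PCR in G2.5 uteri of both groups. It reported Sult1d1 and VEGF among those lower in Dox-. The VEGF level, the presence of doxycycline and repression in tissues other than the uterus, such as the ovary, cannot be told apart in this design. Vegfa itself had 247 copies in Dox+ and 125 in Dox-, a 1.93-fold lower level (95% interval 1.55 to 2.41).

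Steroid hormones from the ovary prepare the uterus for the embryo, and enzymes in the uterus change these hormones where they act. Dehydrogenases and aldo-keto reductases interconvert active and inactive forms by oxidation and reduction. Sulfotransferases attach sulfate to steroids, phenols and catecholamines, which keeps them from binding their receptors, and sulfatases remove it again.

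Digital gene expression (DGE) counts sequence tags, and the copy number of a gene is the number of tags assigned to it. Levels are given as TPM, the copies of a gene per 1000000 clean tags, and the libraries held 5985925 clean tags in Dox+ and 5844314 in Dox-. Each interval of a ratio between the libraries is a 95% interval by the exact Clopper-Pearson method. It is computed from how the tags of a gene or family divide over both libraries. Intervals of shares in a family and of ratios between genes use the same method on the tags of 1 library. All intervals cover counting error alone. A gene was called changed when its combined copy number was at least 200, its absolute log2 ratio (Dox- over Dox+) was above 0.5 and the false discovery rate (FDR) of the Audic-Claverie test was below 0.05. This test compares those libraries and not the conditions. Of the 6547 genes with enough copies, 18.8% were called higher and 17.8% lower in Dox-, or 36.6% in either direction. The median log2 ratio of these genes was 0.04.

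Of the 8 enzyme genes, 5 had enough copies to be compared, and all 5 were called, in different directions. Sult1d1 and Sult1a1 fell in Dox-, whereas Akr1c14, Hsd17b11 and Hsd11b2 rose. With a fold change of at least 2 in place of the log2 threshold, 4 were called, 2 in each direction, beside 10.2% of all genes (4.61% higher and 5.62% lower). At 5-fold or more there remained Sult1d1, Sult1a1 and Akr1c14, beside 1.39% of all genes (0.642% higher and 0.748% lower). The members were chosen with earlier results of these data known, so these shares give no test of an excess among them. The other 3 genes, Hsd11b1, Akr1c18 and Srd5a1, had 56, 7 and 31 copies in the 2 libraries together and stayed below the minimum. In a whole uterus, fewer cells of a type and less RNA per cell cannot be told apart.

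**Figure D1:**
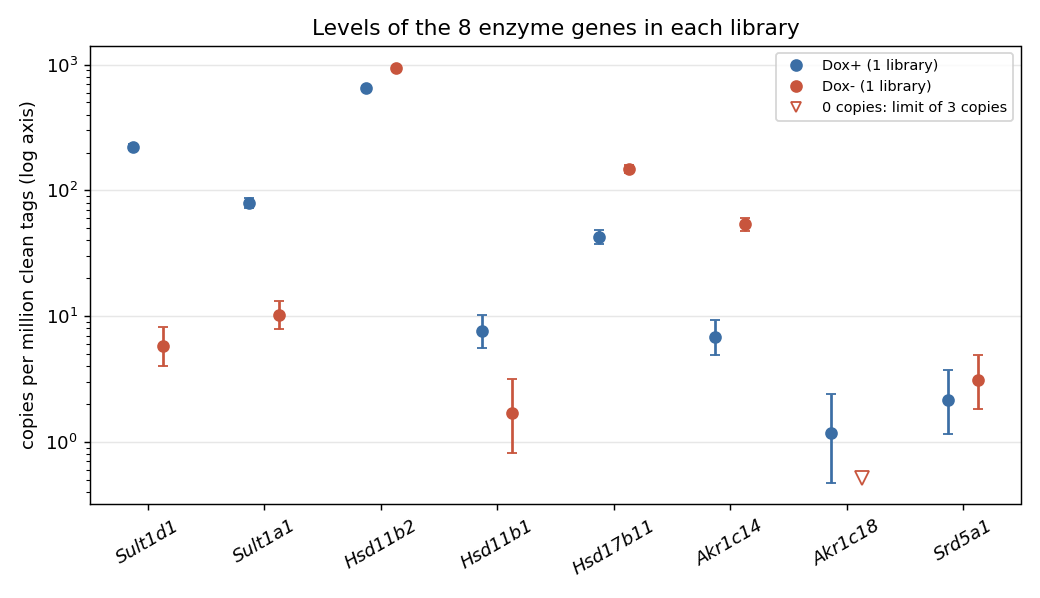
Level of each enzyme gene in the Dox+ library (blue) and the Dox- library (red), in TPM on a log axis, with exact 95% Poisson intervals of the count. Sult1d1 and Sult1a1 stand lower in Dox-, Akr1c14 and Hsd17b11 higher, and Hsd11b2 is the highest in both libraries. The open triangle marks Akr1c18 in Dox-, with 0 copies, at the limit of 3 copies (0.513 TPM).

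Promoter sequences of both genes that fell, and of the gene with the largest rise together with its neighbour in the Akr1c cluster, are shown because these members differed most between the libraries or lie side by side and differ in direction. Each is the stretch of 250 bases before the RefSeq start site, taken from the promoter table of RefSeq (GRCm38.p6) and placed on NCBIM37, the build of the files (mm9), by an exact match of the whole sequence. Letters in capitals mark a match to TGTTCT or its reverse complement, part of the element bound by the progesterone and glucocorticoid receptors, or to the GC box GGGCGG or its reverse complement.
Sult1d1 (chr5:87998032-87998281, minus strand): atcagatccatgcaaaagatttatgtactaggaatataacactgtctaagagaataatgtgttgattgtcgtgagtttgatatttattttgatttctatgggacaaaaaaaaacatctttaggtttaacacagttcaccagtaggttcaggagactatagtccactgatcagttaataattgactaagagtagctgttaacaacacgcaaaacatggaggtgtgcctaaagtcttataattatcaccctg
Sult1a1 (chr7:133819933-133820182, minus strand): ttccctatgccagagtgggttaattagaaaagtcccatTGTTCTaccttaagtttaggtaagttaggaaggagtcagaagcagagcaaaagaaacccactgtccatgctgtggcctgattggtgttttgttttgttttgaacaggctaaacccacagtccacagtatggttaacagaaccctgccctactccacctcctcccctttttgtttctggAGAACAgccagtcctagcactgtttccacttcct
Akr1c14 (chr13:4058587-4058836, plus strand): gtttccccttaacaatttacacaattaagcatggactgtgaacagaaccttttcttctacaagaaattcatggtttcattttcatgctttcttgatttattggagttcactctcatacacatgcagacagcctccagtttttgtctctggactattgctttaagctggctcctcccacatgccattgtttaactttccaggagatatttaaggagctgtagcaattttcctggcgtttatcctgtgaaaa
Akr1c18 (chr13:4149893-4150142, minus strand): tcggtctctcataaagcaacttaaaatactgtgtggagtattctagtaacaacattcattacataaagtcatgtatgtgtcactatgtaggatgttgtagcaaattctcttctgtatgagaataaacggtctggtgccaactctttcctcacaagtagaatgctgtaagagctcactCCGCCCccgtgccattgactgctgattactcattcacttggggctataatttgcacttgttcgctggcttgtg

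The TGTTCT hexamer was present 2 times in the Sult1a1 promoter, at -212 on the sense strand and at -34 on the other strand, counted from the start site. It was found in none of the other 6 promoters that the RefSeq table gave for the enzymes analysed, and 18.97% of all 32851 promoters held it within the 250 bases before and 50 bases after the start. The pentamer TGACC, part of the element bound by the estrogen receptor, was found in 1 of these 7 promoters, that of Akr1c18, at 29 bases after the start, against 40.48% of all promoters. Hsd11b2 and Cyp11a1 are not among the 7, and the promoter of Cyp11a1, which has no expression values here, held TGACC at -27 and GGGCGG at 6 bases after the start, both on the opposite strand. The GC box GGGCGG was present in 3 of the 7 member promoters, those of Hsd17b11, Akr1c18 and Srd5a1, and in 35.66% of all. TATAAA was found in 1 member promoter, that of Sult1d1, on the opposite strand after the start site, and in 13.62% of all. The palindromes AGAACA, 3 bases, TGTTCT and GGTCA, 3 bases, TGACC were found in none of the 7, and in 0.01% and 0.07% of all. All motifs were searched on both strands, no matches in the member promoters overlapped, and a match describes the letters only.

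Sult1d1 encodes a cytosolic sulfotransferase that acts on catecholamines and small phenols. The gene lies on chromosome 5 (87983670 to 87998052, minus strand, NCBIM37), between Sult1b1 and Sult1e1. In Dox+ 1328 copies were counted and in Dox- 34, which corresponded to 222 and 5.82 TPM. Its level was 38.1-fold lower in Dox- (95% interval 27.2 to 55.3), a log2 ratio of -5.25. It was the third lowest of the 6547 log2 ratios. Ranked per kilobase of transcript among all genes detected, Sult1d1 was at percentile 95.1 in Dox+ and 35.4 in Dox-.

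Sult1a1 encodes the phenol sulfotransferase of the liver and other tissues, which also sulfates estrogens. It lies on chromosome 7 (133816379 to 133819946, minus strand), and overlaps Ccdc101 on the opposite strand by 61 bases. Sense and antisense tags were both searched by the study, and how tags of overlapping genes were separated is not given in the sources used here. It had 477 copies in Dox+ and 60 in Dox-, or 79.7 and 10.3 TPM. The level in Dox- was 7.76-fold lower (5.92 to 10.3), a smaller fall than that of Sult1d1, and the intervals of the 2 genes did not overlap. The coding sequences of Sult1d1 and Sult1a1 were 64.3% identical over 764 aligned bases.

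Other cytosolic sulfotransferases were present at low levels. The 6 Sult genes of the table together had 1825 copies in Dox+ and 122 in Dox-, a 14.6-fold lower total (12.2 to 17.7). Without Sult1d1 and Sult1a1, the remaining 4 genes, Sult1c2, Sult2b1, Sult4a1 and Sult5a1, held 20 copies in Dox+ and 28 in Dox-, which did not differ beyond counting error (1.43-fold higher, 0.779 to 2.69). Sult1c2, with 2 copies in Dox+ and 13 in Dox-, had a log2 ratio of 2.74 with an interval of 0.59 to 5.93. Sult1d1 made up 72.8% (70.7 to 74.8) of the Sult tags in Dox+ and 27.9% (20.1 to 36.7) in Dox-. By tags, the share of Sult1a1 went from 26.1% to 49.2%, so that the order of these genes turned around. Per kilobase of transcript, the share of Sult1d1 went from 60.4% to 18.9% and that of Sult1a1 from 38.3% to 58.8%. TPM did not increase with transcript length in these libraries, which limits the shares per kilobase. The totals of gene families were formed after the values had been seen.

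Among the enzymes that supply and remove sulfate, no gene with enough copies was called lower. Of 14 listed genes for the sulfate donor and for sulfatases, 13 were in the table, 6 had enough copies, and 1 was called higher and 0 lower, with a median log2 ratio of 0.29. Papss1, which makes the sulfate donor PAPS, had 445 and 381 copies and was not called. Slc35b2, which carries PAPS into the Golgi, had 807 and 883 copies. Sts, the steroid sulfatase, had 52 copies in Dox+ and 54 in Dox-, which did not differ beyond counting error (log2 ratio 0.09, -0.49 to 0.67). The gene called higher was Arsb, a lysosomal sulfatase that acts on glycosaminoglycans rather than steroids, with 238 and 349 copies. Of 13 further sulfotransferases listed, 6 were in the table and 1 had enough copies. This was Tpst1, which sulfates tyrosine residues of proteins in the Golgi and fell from 495 to 308 copies. Tpst2 had 102 and 81 copies and Sult4a1 12 and 7.

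**Figure D2:**
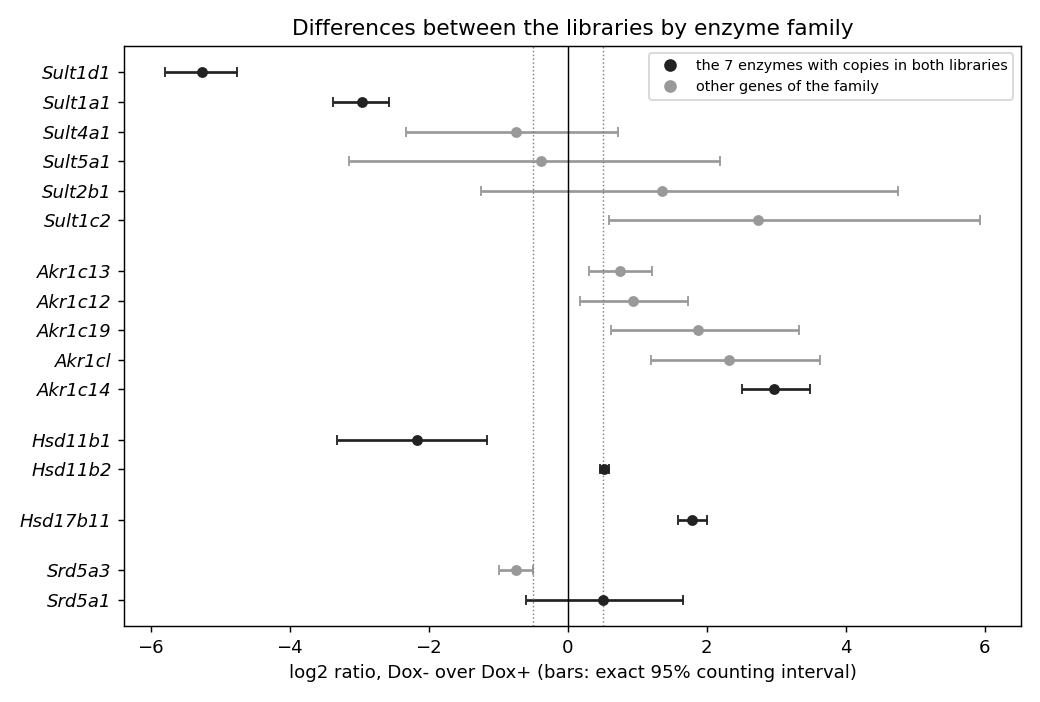
Log2 ratio of Dox- over Dox+ for the genes of the Sult, Akr1c, Hsd11b and Srd5a families and for Hsd17b11, with exact 95% counting intervals. Black points are the 7 enzymes with copies in both libraries, grey points other genes of the family, and dotted lines mark -0.5 and 0.5. Sult1d1 and Sult1a1 lie at the left, all 5 Akr1c genes drawn lie to the right of 0, and Hsd11b1 and Hsd11b2 lie on opposite sides. Akr1c18, which was lower in Dox- with 7 copies in Dox+ and 0 in Dox-, is not drawn.

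Akr1c14 encodes the 3-alpha-hydroxysteroid dehydrogenase, which reduces dihydro forms of progesterone and testosterone. It lies on chromosome 13 (4048257 to 4089668, plus strand). The promoter stretch shown for Akr1c14 lies inside this span, so the RefSeq start site used there is not the start of the span. From 41 copies in Dox+ Akr1c14 rose to 314 in Dox-, or from 6.85 to 53.7 TPM. The level was 7.84-fold higher in Dox- (5.65 to 11.1), a log2 ratio of 2.97, which ranked 20 from the highest of the 6547 genes. Its percentile among the genes with a tag went from 34.1 to 81.4.

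Akr1c18 encodes the 20-alpha-hydroxysteroid dehydrogenase, which inactivates progesterone. It is the next gene of the cluster (chromosome 13, 4131861 to 4149900, minus strand), 42192 bases from Akr1c14, and the coding sequences of the 2 genes were 76.0% identical over 972 bases. Akr1c18 had 7 copies in Dox+ and 0 in Dox-. A count of 0 allows up to 3 copies, or 0.513 TPM. At that limit, with its 7 copies taken as exact, Akr1c18 was 2.28-fold lower in Dox-. The counting interval of the ratio began at 1.41-fold lower. With so few copies in either library its level was low in both, and no call was made.

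The other Akr1c genes of the table stood on the side of Akr1c14. Akr1c13 had 67 and 110 copies, Akr1c12 23 and 43, Akr1c19 7 and 25, and Akr1cl 8 and 39, and the interval of each log2 ratio lay above 0. None of the 4 reached a combined copy number of 200, and they are named after their values had been seen. Akr1c12 and Akr1c13 were 96.2% identical in coding sequence, so that tags may not have been divided reliably between them. Together these 4 genes had 105 copies in Dox+ and 217 in Dox-, 2.12-fold higher (1.67 to 2.70). All 6 Akr1c genes of the table had 153 and 531 copies, and the share of Akr1c14 among them was 26.8% in Dox+ and 59.1% in Dox-. Per kilobase, with the longest coding transcript of each gene, the share of Akr1c14 was 13.7% and 39.6%. This transcript of Akr1c14 has 2917 bases, while the others of the family are shorter, and it lowers the value of Akr1c14 per kilobase.

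Among 15 further aldo-keto reductases listed, these 4 included, 11 were in the table and 5 had enough copies, of which 0 were called in either direction, with a median log2 ratio of -0.27. Akr1a4, an aldehyde reductase with the most copies of the list, had 2110 and 2340 copies. Akr7a5, another aldehyde reductase, had 449 and 324 copies and a log2 ratio of -0.44.

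Hsd11b2 and Hsd11b1 encode the 2 enzymes that act on glucocorticoids in opposite directions. Hsd11b2 turns corticosterone into its inactive form, and Hsd11b1 mainly restores it. Hsd11b2 (chromosome 8, 108042646 to 108047884, plus strand) had 3890 copies in Dox+ and 5475 in Dox-, or 649.9 and 937 TPM. It was the member with the most copies in both libraries, at percentile 99.0 and 99.3 of the genes with a tag, and also the highest per kilobase, with 352 and 508 TPM per kilobase. It rose 1.44-fold in Dox-, a log2 ratio of 0.53 (0.47 to 0.59), close to the threshold of 0.5. With the TMM scaling factors of edgeR its log2 ratio was 0.499, with median-ratio scaling it was 0.493, and a fold change of at least 1.5 was not reached, so that it was not called in these 3 cases.

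Hsd11b1 (chromosome 1, 195047824 to 195090248, minus strand) had 46 copies in Dox+ and 10 in Dox-, or 7.68 and 1.71 TPM. Its level was 4.49-fold lower in Dox- (2.24 to 9.98), and it was called lower when the minimum was lowered to 20 copies. Noncoding genes of the opposite strand overlap Hsd11b1 over 32845 and 4579 bases. Of the tags of both enzymes, Hsd11b1 held 1.17% (0.857 to 1.56) in Dox+ and 0.182% (0.0875 to 0.335) in Dox-, and these intervals did not overlap. Per kilobase of transcript the shares were 1.36% and 0.212%. H6pd, which supplies NADPH to Hsd11b1 in the endoplasmic reticulum, had 275 and 235 copies and was not called.

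Hsd17b11 encodes a dehydrogenase of lipid droplets that oxidises androgen metabolites at carbon 17. It lies on chromosome 5 (104418781 to 104450938, minus strand), far from the Sult genes of that chromosome. Its 256 copies in Dox+ rose to 864 in Dox-, or from 42.8 to 148 TPM. The level was 3.46-fold higher in Dox- (3.00 to 3.99), a log2 ratio of 1.79 that ranked 75 from the highest. Hsd17b11 went from percentile 77.1 to 94.1 of the genes with a tag.

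Some of the related dehydrogenases were called, in both directions, beside 36.6% of all genes called in either direction. Of 25 listed genes besides Hsd11b1, Hsd11b2 and Hsd17b11, 17 were in the table and 9 had enough copies, with 1 called higher, 3 lower and a median log2 ratio of -0.19. Hsd17b12, which reduces long fatty acid intermediates and estrone, rose from 235 to 369 copies. Hsd17b4, a peroxisomal enzyme of fatty acid oxidation that also oxidises estradiol, fell from 613 to 317 copies. Hsd17b10, a mitochondrial enzyme of isoleucine breakdown, fell from 220 to 97 copies, and Nsdhl, of cholesterol synthesis, from 177 to 96. Cbr1 and H2-Ke6, with the most copies among the uncalled genes, had log2 ratios of 0.04 and 0.40.

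Srd5a1 encodes a steroid 5-alpha-reductase, which reduces testosterone and progesterone. The gene (chromosome 13, 69712327 to 69750320, minus strand) lies over its whole length within the annotated span of Nsun2 on the opposite strand. It had 13 copies in Dox+ and 18 in Dox-, or 2.17 and 3.08 TPM. The difference was not detectable at this depth (1.42-fold higher, 0.657 to 3.15). Srd5a3, a reductase of the same family that acts in the synthesis of dolichol, fell from 401 to 234 copies, 1.67-fold. Of the 4 listed reductases besides Srd5a1 with enough copies, this was the only call, and Tecr, a reductase of long fatty acid synthesis with the most copies, had a log2 ratio of -0.44.

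**Figure D3:**
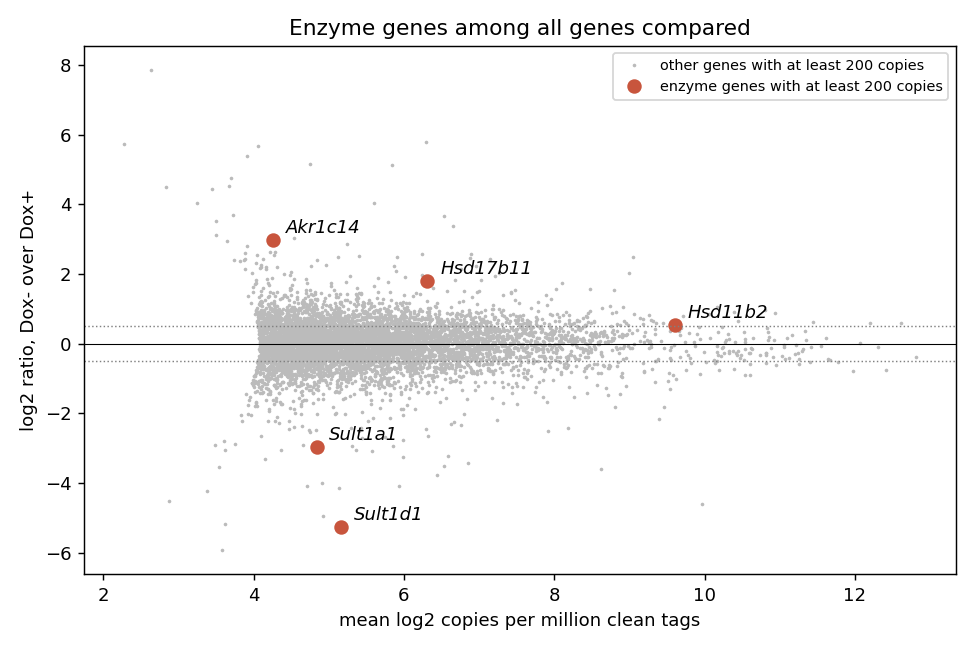
Log2 ratio of Dox- over Dox+ against the mean log2 TPM, for the 6547 genes that were compared. Each grey point is a gene, the 5 enzyme genes with enough copies are in red, dotted lines mark -0.5 and 0.5, and 1 gene with 0 copies in a library is not drawn. Sult1d1 and Akr1c14 lie at the edge of the cloud on opposite sides, and Hsd11b2 lies at the dotted line among genes of high level.

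Per kilobase of transcript, the order of the members in Dox+ was Hsd11b2 with 352, Sult1d1 with 91.7, Sult1a1 with 58.2, Hsd17b11 with 19.1, Hsd11b1 with 4.85, Akr1c14 with 2.35, Akr1c18 with 0.969 and Srd5a1 with 0.821 TPM per kilobase. In Dox- it was Hsd11b2 with 508, Hsd17b11 with 66.2, Akr1c14 with 18.4, Sult1a1 with 7.49, Sult1d1 with 2.40, Srd5a1 with 1.16 and Hsd11b1 with 1.08, and Akr1c18 was at 0 copies. Hsd17b11 and Akr1c14 thus stood above both sulfotransferases in Dox- and below both in Dox+. Levels in TPM without the length gave the same order in Dox-, and in Dox+ they exchanged Akr1c18, with 1.17, and Srd5a1, with 2.17. Neighbours in the order by TPM were compared by the ratio of their copies within a library. In Dox+ the intervals of Hsd11b1 over Akr1c14 (1.12, 0.720 to 1.75) and of Srd5a1 over Akr1c18 (1.86, 0.689 to 5.50) held 1, and in Dox- that of Srd5a1 over Hsd11b1 (1.80, 0.788 to 4.36). The intervals of all other neighbours lay above 1, those of Sult1a1 over Sult1d1 (1.14 to 2.77) and of Sult1d1 over Srd5a1 (1.04 to 3.55) in Dox- coming closest. Across the 6425 compared genes with a transcript length, TPM did not increase with length (Spearman rho -0.21, a description across genes), which limits levels per kilobase.

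For the genes of steroid synthesis, 12 of 18 listed genes besides Cyp11a1 were in the table and 6 had enough copies, with 0 called higher and 2 lower. Cyb5, the cytochrome that donates electrons to steroid-forming P450 enzymes, fell from 1434 to 752 copies, and Stard5, a carrier of sterols and bile acids, fell from 167 to 92. Tspo, a protein of the outer mitochondrial membrane, had 1321 and 1225 copies, and Por, the reductase of microsomal P450 enzymes, 1100 and 1366, and neither was called. Star, which moves cholesterol to the site of Cyp11a1 in steroid-making cells, had 12 and 13 copies.

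Few enzymes that break down estrogens and sterols had enough copies, and their calls went in both directions, beside 36.6% of all genes called. Of 17 listed genes, 13 were in the table and 3 had enough copies, of which 2 were called higher and 1 lower. Ugdh, which makes the donor for glucuronidation, rose from 180 to 277 copies. Cyp27a1, the sterol 27-hydroxylase, fell from 227 to 67 copies, 3.31-fold (2.51 to 4.41). Cyp1b1, an estrogen hydroxylase, had 97 copies in Dox+ and 0 in Dox-. With 3 copies in place of 0 it was 31.6-fold lower, while its counting interval began at 25.2-fold lower. It stayed below the minimum. Cyp7b1, with 39 and 32 copies, did not differ beyond counting error.

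Over all lists, 34 genes other than the members had enough copies, of which 4 were called higher and 8 lower, or 12 of 34. This share is close to the 36.6% of all genes, and the median log2 ratio was -0.12 beside 0.04 for all genes. At a minimum of 20 copies, 12 were called higher and 10 lower, and the median was 0.08.

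**Figure D4:**
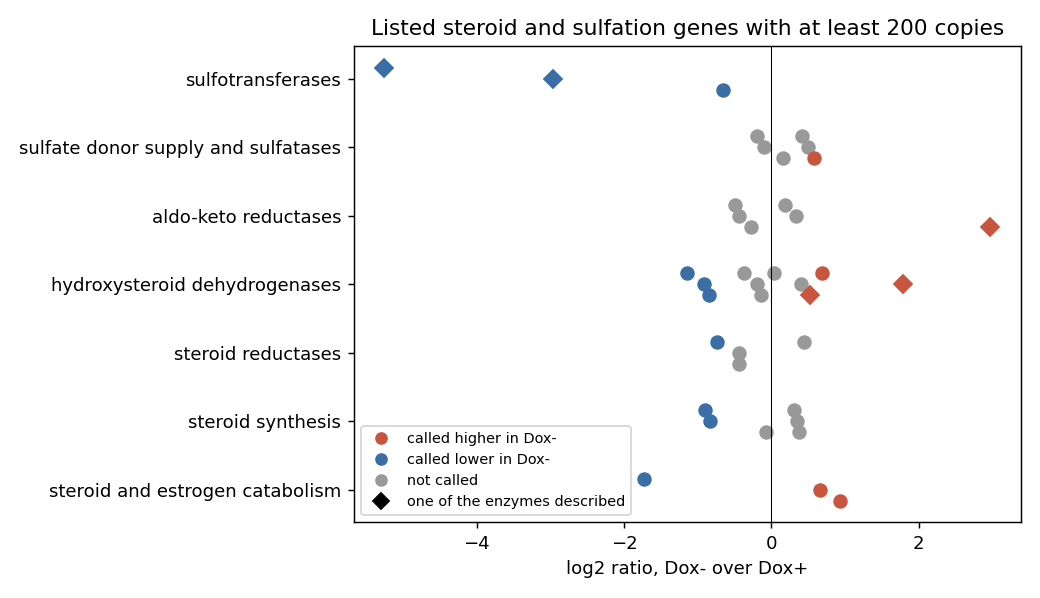
Log2 ratio of Dox- over Dox+ for each listed gene that reached the copy number minimum, by list. Red points were called higher and blue points lower in Dox-, grey points were not called, and diamonds are the enzymes described here. The sulfotransferases Sult1d1 and Sult1a1, at -5.25 and -2.96, and Akr1c14, at 2.97, lie outside the range of the other listed genes drawn, and so does Hsd17b11 at 1.79.

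Markers of uterine cell types were read beside these values. The summed level of the 8 epithelial markers was 1034 and 1363 TPM in Dox+ and Dox-, with 3 of 8 called higher and 0 lower. The 3 of 6 gland markers in the table summed to 75.3 and 58.2 TPM. The 7 stromal markers went from 2068 to 1393 TPM, with 4 called lower and 1 higher, so that they did not move together. Hoxa10 went from 521 to 181 TPM, Hoxa11 from 430 to 134, Hand2 from 165 to 24.5 and Vim from 436 to 287. Lum went from 258.8 to 475.5 TPM, while Dcn (191 and 241 TPM) and Pdgfra (65.8 and 48.9 TPM) were not called. All 6 myometrial markers were called lower, from 4591 to 2968 TPM. Endothelial markers summed to 355 and 311 TPM, with 2 of 8 called lower, leukocyte markers to 53.8 and 77.2 TPM, and adipocyte markers to 245 and 192 TPM. The part of these cell types in the changes of the enzymes was not tested. As single genes, Krt8 and Krt18 had log2 ratios of 0.19 and 0.38, against -5.25 for Sult1d1.

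Other tissues were looked for as well. Of 8 listed markers of ovarian steroidogenic cells, 2 were in the table, Star and Inha, and they held 12 and 15 copies in total. Cyp21a1, listed for the adrenal cortex, had 20 and 86 copies. The oviduct markers differed in direction, as Ovgp1 had 25 and 2 copies, Foxj1 3 and 25 and Pax8 114 and 207. Ttr, the liver marker of the table, had 47 copies in Dox+ and 0 in Dox-.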

How the data were processed

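RNA of 3 pooled uteri per condition was measured in 1 Dox+ and 1 Dox- library. Tags of low quality, tags of adaptor sequence only and single-copy tags had been discarded by the authors. The remaining clean tags had been matched to mouse reference mRNAs (mm9), and those that matched 1 gene were counted. CASAVA is named in the submitters' processing notes, while neither the aligner nor the enzyme that cuts the tags is given in the sources used here. The sample labels mention fragmented mRNA, while the methods describe tag profiling, and this was not resolved. The deposited counts are tags per gene without normalization. The deposited TPM values are copies per 1000000 clean tags, not divided by length, and hold 0.01 where no tag was counted. The log2 ratios, ratios, P-values and FDR columns of the authors' own comparison were not used.

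Clean tag totals were read back as the whole numbers for which every deposited TPM equals the rounded copy number per 1000000 tags. The table held 74.1% and 72.2% of them. The two-sided Audic-Claverie test was run on counts, with Benjamini-Hochberg adjustment over the 6547 genes that reached 200 copies in both libraries together. It was also run on simulated Poisson counts without variation between pools, which cannot show how often such variation leads to a call. With 1 library per condition no replicate error could be estimated. Where a library had 0 copies, 3 copies were used instead. That fold change takes the copies of the other library as exact, so the start of the counting interval is given beside it. The members and the gene lists were chosen with earlier results of these data known. The text names the members, the listed genes that were called, the 2 further genes with the most copies of each list, and genes chosen after their values were seen where said so. Results of some genes this rule selects are not reported here. Positions and transcript lengths are from GENCODE vM1 on NCBIM37, matched by symbol for 14353 genes, and the longest coding transcript was used. Coding sequences were aligned globally with Biopython 1.88 as nucleotides, because the planned comparison of proteins was not run. Alternatives were other library sizes and scalings, copy number filters, fold thresholds, Fisher's exact test, and edgeR's exact test, in which the coefficient of variation between pools was assumed to be 0.1, 0.2 or 0.4. Python 3.11.15, scipy 1.17.1, pandas 2.3.3, R 4.3.3 and edgeR 4.0.16 were used.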

Additional observations from a re-analysis of the deposited data

How the results depend on the processing

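Sult1d1 kept its call under all 12 alternatives to the call rule and scaling, and Sult1a1, Akr1c14 and Hsd17b11 under 11 of 12, the exception being an assumed coefficient of variation of 0.4 between pools. Hsd11b2 kept its call under 6 of 12: it was lost with TMM and median-ratio scaling, at fold changes of 1.5 and 2, and with an assumed coefficient of variation of 0.2 or 0.4. The direction of a called member could not reverse under these alternatives, so directions were not tested by them. The scalings moved log2 ratios by only -0.035 to 0.038, and the other alternatives left them unchanged. With a coefficient of variation of 0.4, members called higher fell to 0 and members called lower to 1. Without a copy number filter 4 members were called lower, Hsd11b1 and Akr1c18 being added.

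Over the table, 1231 genes were called higher and 1168 lower. A minimum of 20 copies gave 2212 and 2164, no filter 2302 and 2319, a fold change of at least 2 gave 302 and 368, and coefficients of variation of 0.2 and 0.4 gave 138 and 161, and 16 and 16. Of the other listed enzymes, 12 were called higher and 10 lower at a minimum of 20 copies, and 13 and 12 without a filter, and their median log2 ratio turned from -0.12 to 0.08 under both, while the 2-fold threshold left 0 higher and 2 lower. Scaling moved log2 ratios by -0.04 to 0.04. The true variation between pools was not measured, the copies limit Akr1c18, Srd5a1 and Hsd11b1, and no replicate could be left out. No paired analysis was possible because each condition has 1 library.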

Other observations

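Of the listed steroid and sulfation genes besides the members, 42 had a combined copy number below 200. The counting interval of the ratio lay above 1 for 10 of them, below 1 for 5 and held 1 for 27. The following were chosen after their values were seen. Ugt2b34, which attaches glucuronic acid to steroids and other compounds, had 0 copies in Dox+ and 14 in Dox-. With 3 copies in place of 0 it was 4.78-fold higher, while its counting interval began at 3.40-fold higher. Stard3, a sterol carrier of late endosomes, had 29 and 84 copies (log2 ratio 1.57, 0.94 to 2.23). Bpnt1, which breaks down the by-product of sulfation, had 50 and 17 copies (-1.52, -2.41 to -0.70). Papss2, the second enzyme that makes the sulfate donor, had 22 and 42 copies (0.97, 0.19 to 1.78).

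In the plane of log2 ratio and mean log2 TPM, the gene closest to Sult1d1 was Jam2, with 1007 and 32 copies, at a distance of 0.396. The closest to Sult1a1 was Gm13889, with 415 and 54 copies, to Akr1c14 Sfn, with 49 and 388, to Hsd17b11 Gsr, with 229 and 870, and to Hsd11b2 Eif4g2, with 4210 and 5588. The likeness rests on 2 libraries.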
